A study of Mus musculus with 9 samples.

Results

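The cytosolic ribosome genes are the genes that encode the proteins of the large and small subunits of the ribosome outside mitochondria. They were taken as the protein-coding genes of the GENCODE M21 annotation with the symbol Rpsa, Rplp0, Rplp1 or Rplp2, or Rpl or Rps followed by a number and at most 1 letter, without the Rps6k kinases. This gave 80 of 21938 protein-coding genes: 46 of the large subunit, 31 of the small subunit and 3 of the stalk. A member had a promoter peak when a peak of a library overlapped the 1 kb on either side of any of its transcription start sites.

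Every cell makes ribosomes, so these genes have open, active promoters in almost all tissues. Their promoters are compact and usually lack a TATA box, and their transcripts begin with a run of pyrimidines that couples their translation to growth signals. ETS family factors, of which Ets1 is a member, recognise DNA around the letters GGAA, and such letters are common close to the start sites of housekeeping genes. Beige adipocytes are fat cells that acquire many mitochondria and burn fuel to make heat, for example in the cold.

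The study addressed what Ets1 does in adipocytes of mouse subcutaneous (inguinal) fat. Ets1 CUT&Tag was done in primary beige adipocytes, in adipocytes of wild type C57 mice after 7 days of cold stress (CS), and in adipocytes of such mice at room temperature (RT). CUT&Tag of H3K27ac, a histone mark of active promoters and enhancers, was done in EA+/+ and EC+/+ adipocytes and in EAKO and Flox adipocytes, and ATAC, which tags open chromatin, in EAKO and Flox adipocytes. EA+/+ mice were Ets1 ki/ki crossed to Adipoq-cre, so that a CAG-driven Ets1-2A-EGFP cassette behind a loxP-stop-loxP was opened in cells with the Adipoq promoter active, and EC+/+ mice carried Ets1 ki/ki without Cre. EAKO mice were Ets1 f/f crossed to Adipoq-cre, and Flox mice were Ets1 f/f without Cre. Neither control for these crosses carried the Cre transgene, so Cre and the change of Ets1 cannot be told apart. The beige adipocytes were grown from the stromal vascular fraction of C57BL/6J males aged 3 to 4 weeks and differentiated in culture for 6 days with insulin, dexamethasone, T3, rosiglitazone and IBMX. The other adipocytes were the floating fraction of males aged 8 to 10 weeks, so a difference between beige and CS or RT also holds culture, age and drugs. There was 1 library per group, with no replicates, so differences between groups were described without tests and nothing is known of how animals differ.

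The lists differed in size, from 4056 peaks in Ets1 RT to 88977 in Flox ATAC, with 30553 in Ets1 beige and 14858 in Ets1 CS. The H3K27ac lists held 38484 peaks in EA+/+, 33713 in EC+/+, 74682 in EAKO and 86834 in Flox, and EAKO ATAC held 82839. Depth cannot be read from a peak list. Of 18 adipocyte genes, 14 had a promoter peak in each of the EAKO and Flox libraries and in Ets1 beige, 11 in Ets1 CS and in EA+/+, 13 in EC+/+ and 1 in Ets1 RT. Adipoq, the gene of the adipocyte hormone adiponectin, and Cidec, a lipid droplet gene, had none in any of the 9 lists. Of 10 markers of adipose stem and progenitor cells, 4 had a peak in EA+/+ and 6 in EC+/+, 8 in EAKO H3K27ac and 9 in Flox H3K27ac, 9 in each ATAC list, 4 in Ets1 beige, 2 in Ets1 CS and 0 in Ets1 RT. Of 10 endothelial markers, between 5 and 8 had a peak in the H3K27ac and ATAC lists, 0 in Ets1 beige, 2 in Ets1 CS and 0 in Ets1 RT. Of 10 macrophage markers, 0 to 4 had a peak in each list. Of all protein-coding genes, 46.4% had a promoter peak in Ets1 beige, 32.7% in Ets1 CS and 4.06% in Ets1 RT. The share was 50.4% in EA+/+, 52.0% in EC+/+ and between 60.5% and 67.7% in the EAKO and Flox lists. The part of other cell types in the results was not tested.

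The promoters of 11 members are given first, because the strength of their Ets1 peaks and the letters they hold are compared throughout. Each stretch runs from 200 bases before a RefSeq start site to 20 bases from it on, in GRCm38.p6 (mm10), 5′ to 3′ on the strand of the gene. Capitals mark the letters CCGGAAG, the form of the ETS site searched, or CTTCCGG, the same letters on the other strand. The first 5 had the strongest Ets1 peaks in beige adipocytes among members with a sequence in the RefSeq table.
Rpl27 (chr11:101442045-101442264, plus strand): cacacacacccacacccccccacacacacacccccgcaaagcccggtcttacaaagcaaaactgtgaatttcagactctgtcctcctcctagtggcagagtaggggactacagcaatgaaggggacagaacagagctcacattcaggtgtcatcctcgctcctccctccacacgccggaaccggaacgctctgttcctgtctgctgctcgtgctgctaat
Rpsa (chr9:120127566-120127785, plus strand): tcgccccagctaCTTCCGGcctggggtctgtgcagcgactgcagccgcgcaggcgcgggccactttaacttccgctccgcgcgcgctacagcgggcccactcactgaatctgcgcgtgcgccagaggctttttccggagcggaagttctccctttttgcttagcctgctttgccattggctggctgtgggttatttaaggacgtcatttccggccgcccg
Rps18 (chr17:33955646-33955865, minus strand): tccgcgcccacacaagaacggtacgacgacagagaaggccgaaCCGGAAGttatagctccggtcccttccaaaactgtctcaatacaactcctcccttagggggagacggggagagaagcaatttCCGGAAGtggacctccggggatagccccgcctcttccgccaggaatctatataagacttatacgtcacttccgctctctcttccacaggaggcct
Rps21 (chr2:180257179-180257398, plus strand): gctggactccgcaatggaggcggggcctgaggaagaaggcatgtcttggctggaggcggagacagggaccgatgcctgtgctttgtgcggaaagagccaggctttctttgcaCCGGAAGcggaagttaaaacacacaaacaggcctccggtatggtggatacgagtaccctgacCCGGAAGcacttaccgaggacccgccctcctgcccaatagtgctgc
Rpl41 (chr10:128549149-128549368, minus strand): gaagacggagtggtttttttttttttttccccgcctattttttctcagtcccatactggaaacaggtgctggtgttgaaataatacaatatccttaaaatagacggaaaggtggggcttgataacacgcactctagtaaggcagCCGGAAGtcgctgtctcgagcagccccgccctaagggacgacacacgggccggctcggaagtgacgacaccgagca

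The next 3 were the members with an Ets1 peak in RT adipocytes. Most of their Ets1 summits lay upstream of the stretch printed. Counted from this start site in beige, CS and RT, they were at -303, -394 and -323 bp for Rps25. For Rplp2 they were at -269, -25 and -235 bp, and for Rpl13a at -360, -358 and -227 bp.
Rps25 (chr9:44407514-44407733, plus strand): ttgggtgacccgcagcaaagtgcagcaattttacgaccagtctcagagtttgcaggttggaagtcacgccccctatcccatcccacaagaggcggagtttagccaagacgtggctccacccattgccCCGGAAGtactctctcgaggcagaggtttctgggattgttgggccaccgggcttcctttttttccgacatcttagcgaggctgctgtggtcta
Rplp2 (chr7:141447451-141447670, plus strand): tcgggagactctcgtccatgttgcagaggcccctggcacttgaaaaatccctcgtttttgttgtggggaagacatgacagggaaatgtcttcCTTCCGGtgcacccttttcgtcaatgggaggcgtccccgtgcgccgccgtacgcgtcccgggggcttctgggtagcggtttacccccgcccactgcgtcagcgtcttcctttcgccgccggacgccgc
Rpl13a (chr7:45128726-45128945, minus strand): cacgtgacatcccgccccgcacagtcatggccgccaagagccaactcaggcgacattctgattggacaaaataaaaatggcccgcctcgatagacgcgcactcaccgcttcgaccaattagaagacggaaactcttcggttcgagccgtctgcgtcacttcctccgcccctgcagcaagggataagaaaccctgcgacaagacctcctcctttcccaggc

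The last 3 were Rpl6, which had no Ets1 peak in any library, and the paralogs Rpl39 and Rpl39l, of which Rpl39 had one in beige and Rpl39l in none of the 3. The beige summit of Rpl39 lay at -255 bp, outside its stretch.
Rpl6 (chr5:121204301-121204520, plus strand): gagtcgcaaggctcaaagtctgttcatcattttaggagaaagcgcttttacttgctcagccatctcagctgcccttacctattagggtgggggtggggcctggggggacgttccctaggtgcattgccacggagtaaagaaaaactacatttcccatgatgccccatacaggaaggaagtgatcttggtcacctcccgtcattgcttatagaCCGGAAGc
Rpl39 (chrX:37085203-37085422, minus strand): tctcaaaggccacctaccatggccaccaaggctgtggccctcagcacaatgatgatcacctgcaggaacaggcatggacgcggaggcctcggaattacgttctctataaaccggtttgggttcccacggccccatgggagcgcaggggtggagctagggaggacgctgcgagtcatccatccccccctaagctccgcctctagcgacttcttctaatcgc
Rpl39l (chr16:10170028-10170247, plus strand): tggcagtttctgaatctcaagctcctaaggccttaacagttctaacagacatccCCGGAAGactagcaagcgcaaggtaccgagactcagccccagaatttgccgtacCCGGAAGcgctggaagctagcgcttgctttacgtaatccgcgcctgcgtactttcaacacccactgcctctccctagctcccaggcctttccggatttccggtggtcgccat

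Rpl27, the member with the strongest Ets1 peak, had no full match in this stretch, Rps18 and Rps21 each had 2, and Rpsa and Rpl41 each had 1. The beige summits of these genes lay inside their stretches, while the CS summits of Rps18 (173 bp) and Rpl41 (324 bp) lay past the end. Rpl39l had 2 matches and no Ets1 peak, so the letters and the peaks did not go together in every promoter.

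Ets1 peaks lay at nearly all of these promoters in beige adipocytes, at most of them in CS, and at few in RT. In Ets1 beige 76 of 80 members had a promoter peak (95%, Wilson 95% interval 87.8 to 98.0), against 46.4% of all protein-coding genes. In Ets1 CS 49 had a peak (61.3%, 50.3 to 71.2), against 32.7% of all genes. In Ets1 RT 3 had a peak (3.75%, 1.28 to 10.5), against 4.06% of all genes, so the members' share was near the background in RT. These intervals cover counting error only. Large and small subunit genes were both represented: 42 of 46 and 31 of 31 in beige, and 25 and 22 in CS. All 3 stalk genes had a peak in beige, Rplp0 and Rplp2 in CS, and Rplp2 in RT. The stalk is the part of the large subunit that recruits the elongation factors.

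**Figure D1:**
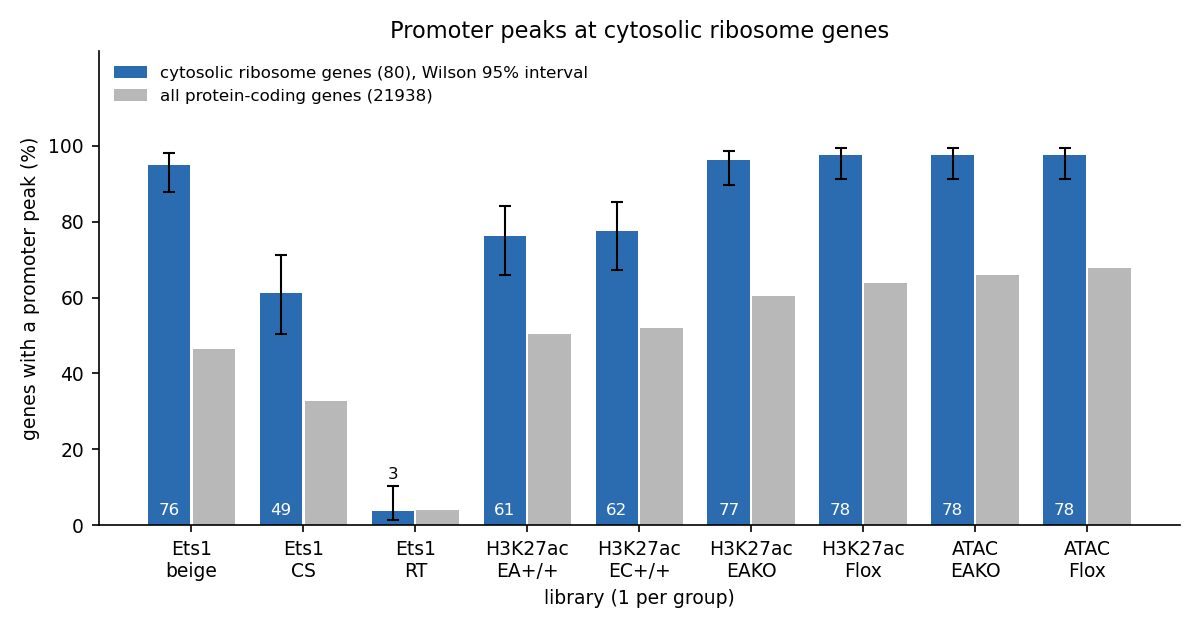
Percentage of the 80 cytosolic ribosome genes (blue, with Wilson 95% intervals that cover counting error only and the number of members printed on or above the bar) and of all 21938 protein-coding genes (grey) with a promoter peak in each of the 9 libraries, 1 library per group. The members' share is above that of all genes in every library except Ets1 RT, where 3 members (3.75%) stand against 4.06% of all genes.

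The strength of a peak was taken as its −log10 q, the confidence the authors' peak caller gave it, which depends on depth and is used here only to order peaks within a library. In beige the members' best promoter peaks had −log10 q between 4.14 (Rpl9) and 146 (Rpl27), with a median of 20.9 against 14.4 over all genes with a promoter peak. The median member stood at percentile 62.8 of those genes, and 13 of the 76 were in the top 10%. In CS the values ran between 2.03 (Rpl41) and 15.0 (Rpl27) with a median of 5.15, against 5.37 over all genes, and the median member stood at percentile 47.3. Members with a CS peak were therefore ordinary in strength among genes with a CS peak. With peaks of −log10 q of at least 5 alone, 25 members had a CS peak and 0 an RT peak. The share of all genes at this cut is not given here, so these counts have no background beside them. In RT the 3 members were weak, at percentile 24.9 in the median.

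**Figure D2:**
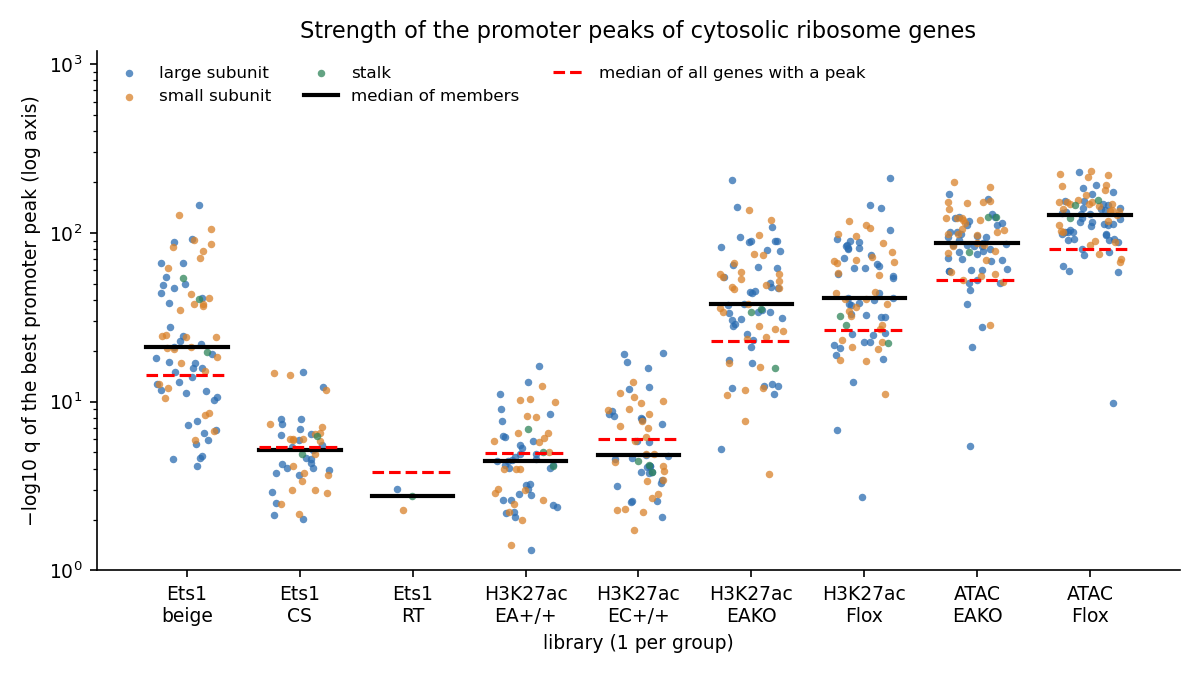
The −log10 q of the best promoter peak (log axis) of each member that had a peak, by library, with large subunit genes in blue, small subunit genes in orange and stalk genes in green. Black lines are the medians of the members and red dashed lines the medians of all genes with a peak. The members' median is above that of all genes in Ets1 beige and in the EAKO and Flox libraries, and below it in Ets1 CS, Ets1 RT, EA+/+ and EC+/+.

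Rps25, Rplp2 and Rpl13a had an Ets1 peak in all 3 groups. Rps25, a small subunit protein used in translation from viral internal entry sites, had a −log10 q of 77.6 in beige, 14.8 in CS and 2.29 in RT. Rplp2, a stalk protein, had 53.8 in beige, 6.29 in CS and 2.75 in RT. Rpl13a, a large subunit protein that also acts in the silencing of inflammatory transcripts, had 66.0 in beige, 7.92 in CS and 3.05 in RT. All 3 ranked in the lower part of the RT list, at percentiles 16.0, 24.9 and 40.8 of the genes with an RT peak. Among the genes with a CS peak they stood at percentiles 93.5, 59.2 and 72.5. The window of Rps25 also holds the start site of Trappc4, a gene of vesicle transport, so its peaks cannot be given to either gene alone. Other named members whose window holds another gene's start were Rpl3, Rpl4, Rpl9, Rpl12, Rpl15, Rps2, Rps10, Rps18, Rps24, Rps27 and Rps28.

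Beyond those 3, 46 members had an Ets1 peak in CS and none in RT, and 0 had a peak in RT alone. The background was 29.1% of all genes for CS alone and 0.428% for RT alone. Among the 46, the highest in CS were Rpl27 (15.0), Rps21 (14.4), Rpl15 (12.3), Rps19 (11.7), Rpl38 (7.91) and Rpl14 (7.39). Rps19 is the small subunit gene most often mutated in Diamond-Blackfan anaemia, a human failure of red cell production. With both lists cut to their 4056 best peaks, 20 members (25%) had a peak in CS alone and 0 in RT alone, against 12.8% and 0.916% of all genes. The count of members in CS alone thus moved with the size of the list by over 1.5 times while its direction did not.

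Between beige and CS, 49 members had an Ets1 peak in each list. A further 27 had it in beige alone, against 17.1% of all genes, and 0 in CS alone, against 3.39%. With both lists cut to their 14858 best peaks, 45 members had both, 21 beige alone (26.3%) and 4 CS alone (5.00%), against 9.84% and 7.49% of all genes. This comparison shares the CS library with the one before it. Between beige and RT, which share those libraries in turn, 73 members had a peak in beige alone and 0 in RT alone, against 42.8% and 0.401% of all genes. At 4056 peaks each, 27 members had one in beige alone, which is 33.8% of them against 12.1% of all genes.

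Among members with both peaks, the highest in beige was Rpl27, with a −log10 q of 146 in beige and 15.0 in CS. Rpsa, which is also known as a receptor for laminin, had 127 in beige and 6.53 in CS. Rps18 had 105 in beige and 3.00 in CS. Rps21 had 91.1 in beige and 14.4 in CS, Rpl41, which encodes a very small basic protein, 88.0 in beige and 2.03 in CS, and Rps19 82.7 in beige and 11.7 in CS. Rpl27 and Rps21 were near the top of both lists, while Rpl41 was the lowest of the 49 members in CS. Within the genes with a peak, Rpl41 stood at percentile 94.8 in beige and 3.79 in CS, the largest such gap (91.0 points), and Rpl9 stood at percentile 11.8 in beige and 55.6 in CS, the largest gap the other way. The beige peak of Rpl41 had its summit at -33 bp from the nearest coding start site (negative values upstream), and the CS peak at 258 bp. The median gap of the 49 members was 19 points higher in beige, against 4.31 points over 6434 genes. Both values are descriptions over genes of 1 pair of libraries.

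Of the 27 members with a peak in beige alone, Rpl32 was the highest (92.1), followed among those named here by Rps2 (43.6), Rpl39 (38.2), Rps26 (36.7) and Rpl10a (27.8). These are structural proteins of the large or small subunit, and Rps2 shares its window with the start site of Rnf151. The 27 were weaker than the other 49 in lists that had no part in choosing them: their median −log10 q was 102 in Flox ATAC against 136 for the 49, and 38.0 in Flox H3K27ac against 55.7. In beige itself the medians were 12.6 and 24.5. The groups overlapped widely, since the 27 ran from 58.5 to 157 in Flox ATAC and the 49 from 59.6 to 232.

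**Figure D3:**
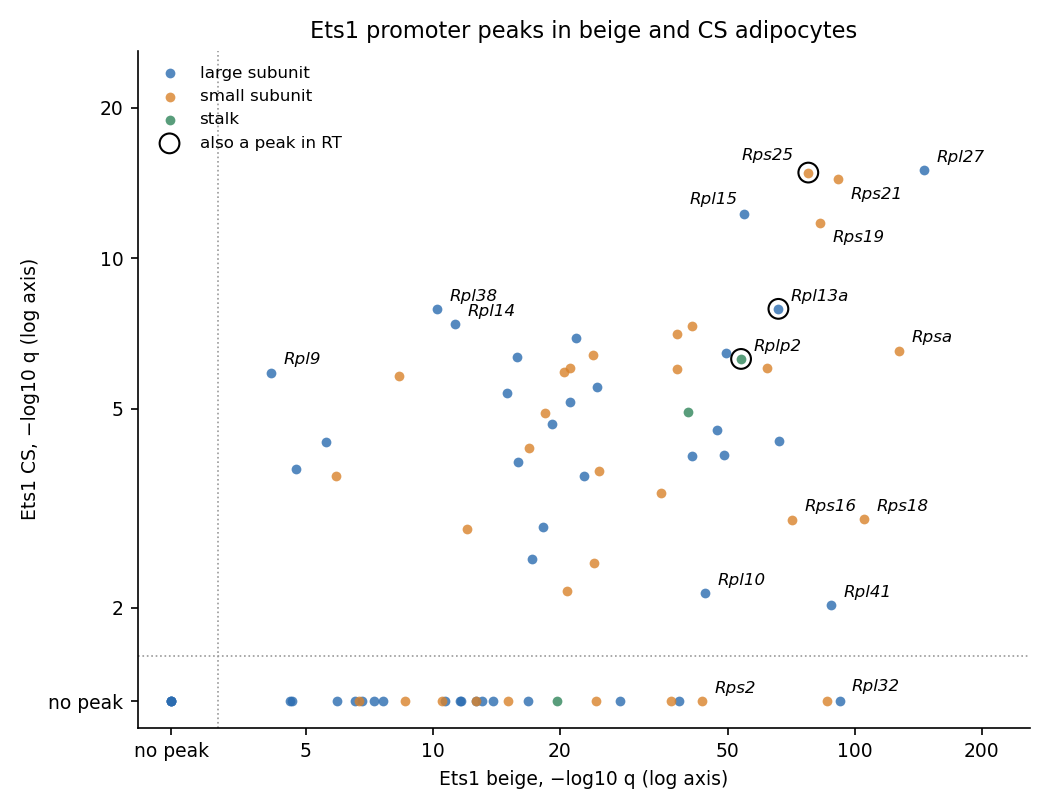
The −log10 q of the best Ets1 promoter peak in beige (x) and CS adipocytes (y), both on log axes, for the 80 members, coloured by subunit, with members that lack a peak placed beyond the dotted lines at no peak and members with an RT peak circled. Rpl27 (146 and 15.0) is highest in both, Rpl32 (92.1) has no CS peak, and 4 members have neither.

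The ETS letters were more frequent at member promoters than at all promoters. Of the 80 members 60 had a promoter of 300 bases in the RefSeq table (250 before and 50 from the start site on), and CCGGAAG on either strand was in 25 of them (41.7%), against 13.4% of 16522 protein-coding genes. The longer CCGGAAGT, which holds the shorter form, was in 12 (20.0%) against 5.94%. The reversed letters GAAGGCC, which are not an ETS site, were in 5 (8.33%) against 5.81%. Unlike CCGGAAG they hold no C followed by G, so they cannot show what the CG content of these promoters alone would give. Of other factors, AAGATGGC (YY1) was in 5 (8.33%) against 3.64%, GGGGCGGG (SP factors) in 8 (13.3%) against 25.5%, GCATGCGC (NRF1) in 3 (5.00%) against 4.11%, and TATAAA (the TATA box) in 6 (10.0%) against 14.3%. A run of at least 5 pyrimidines over the start base was found at 20 of the 60 (33.3%) against 10.3% of all genes, as in the 11-base run of Rps18 above. A match is a description of the letters and not a binding site.

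At the Ets1 peaks themselves, 100 bases on each side of the summit held CCGGAAG in 27 of the 80 member peaks in beige (33.8%), against 13.7% of 11068 promoter peaks. In CS it was in 10 of 52 (19.2%) against 10.9% of 6935, and in RT in 0 of 3 against 5.75% of 817. The reversed letters were in 7.50% of beige member peaks against 4.59%, and in 7.69% against 5.31% in CS. The TATA box letters were in 10.0% of beige member peaks against 2.58%, and the YY1 letters in 5.00% against 2.59%. The SP letters were less frequent there (16.3% against 25.9%), and the NRF1 letters alike (3.75% against 3.83%). The ETS letters were thus not the only ones more frequent at member peaks. Counted by the best peak of each member in beige, 26 members had a match to the ETS letters, at a median of 47 bp from the summit, and 50 had none. The 26 had a median −log10 q of 36.3 (5.91 to 127), against 19.8 (4.14 to 146) for the 50. Over all genes the same medians were 18 with a match and 13.8 without. In Flox H3K27ac and Flox ATAC the medians of those 26 and 50 members were closer, at 41.4 and 42.4 for H3K27ac and 136 and 123 for ATAC. Split instead by a match in the 300-base promoter, members with and without one had medians of 37.9 and 18.2 in beige. That split gave 55.7 and 40.9 in Flox H3K27ac and 135 and 122 in Flox ATAC, so H3K27ac differed too. In CS the 10 members with a match had a median of 6.15, against 4.92 for the 39 without. The Flox H3K27ac medians of those 10 and 39 went the other way, at 38.4 and 57.1, and those of Flox ATAC were 148 and 134. Rpsa (match 22 bp from the beige summit), Rps18 (15 bp), Rpl41 (26 bp), Rps21 (41 bp) and Rpl32 (48 bp) were among those with a match, while Rpl27, Rps19, Rps25 and Rps16 had none there.

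Ets1 summits at these genes lay close to the start site. In beige 56 of 76 (73.7%) were within 100 bp of the nearest start of a coding transcript, with a median of -40 bp, against 49.3% of all genes with a beige promoter peak. In CS 22 of 49 (44.9%) were within 100 bp, against 39.1% of all genes. In EAKO ATAC the share was 75.6% against 38.2%, and in Flox ATAC 73.1% against 43.7%. H3K27ac summits were more spread, with 50.6% of members within 100 bp in EAKO (all genes 31.8%) and 56.4% in Flox (37.9%). A peak counted when any part of it lay within 1 kb of a start site of any transcript of the gene, coding or not. In 8 cases over the 9 lists the summit of the best such peak was over 1 kb from any coding start. The CS peak of Rps24, at -3820 bp, and the EC+/+ peaks of Rpl3, Rpl6, Rps18 and Rpsa were among them. A count of peaks at these members in CS or EC+/+ thus includes some that are not at the coding start.

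**Figure D4:**
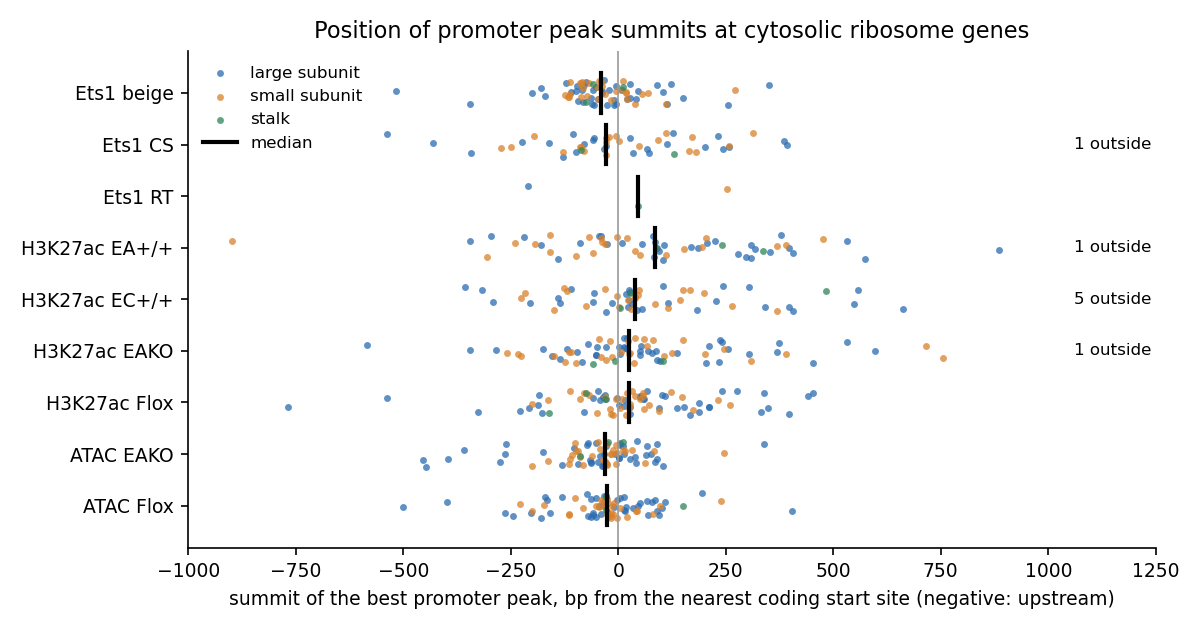
Distance in bp from the summit of each member's best promoter peak to the nearest start site of a coding transcript (negative values upstream), by library, with black lines at the medians and points coloured by subunit. Ets1 beige and both ATAC lists are tightest, with medians of -40, -30 and -26 bp, and the number of summits beyond 1 kb is printed at the right.

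The Ets1 peaks of members, like most Ets1 promoter peaks, lay on chromatin that was open and acetylated in adipocytes of Flox mice. All 80 member peaks of beige overlapped a Flox ATAC peak and a Flox H3K27ac peak, against 95.6% and 91.4% of 11068 beige promoter peaks. In CS 51 of 52 overlapped each, against 92.4% and 91.9%. The order of the members by Ets1 was not that by H3K27ac. Across 76 members the rank correlation of beige Ets1 with Flox H3K27ac was -0.02, against 0.42 across 10023 genes, and with Flox ATAC 0.41 against 0.43. Members also ranked less alike than all genes in most other pairs. For EC+/+ with Flox H3K27ac the rank correlation was instead higher in members, at 0.53 across 62 against 0.49 across 10825 genes. For Ets1 CS with Ets1 beige it was 0.25 across 49 members against 0.50. For Flox H3K27ac with Flox ATAC it was 0.44 across 78 members against 0.74. Rpl32 had 92.1 in Ets1 beige and 6.79 in Flox H3K27ac, while Rpl19 had 7.27 in Ets1 beige, no Ets1 peak in CS and 147 in Flox H3K27ac. These points share libraries and promoters and are given as descriptions.

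H3K27ac peaks lay at a like number of members in EA+/+ and in EC+/+. In EA+/+ 61 members had a promoter peak (76.3%, interval 65.9 to 84.2), against 50.4% of all genes, and in EC+/+ 62 (77.5%, 67.2 to 85.3), against 52.0% of all genes. There were 52 members with both, 9 in EA+/+ alone and 10 in EC+/+ alone, against 7.33% and 8.89% of all genes. The 9 included Rpl17 (5.31), Rpl39 (4.03), Rps9 (3.96), Rpl4 (2.60), Rpl10 (2.60), Rpl3l (2.38), Rps2 (1.42) and Rpl14 (1.32). The 10 included Rps18 (9.80), Rpl12 (5.75), Rpl13a (4.16), Rps27 (4.14), Rpl28 (3.83), Rps28 (2.67), Rpl6 (2.58), Rps15 (2.30) and Rps19 (2.29). With peaks of −log10 q of at least 5 alone, 25 members had a peak in EA+/+ and 28 in EC+/+, again without the share of all genes at that cut. Of the 19 members with a peak in 1 genotype, 16 had a −log10 q below 5, close to the limit of these lists, and the peaks of Rps18 and Rpl6 were among those over 1 kb from a coding start. Without the 18 members whose window holds the start site of another protein-coding gene, 7 were in EA+/+ alone and 6 in EC+/+ alone, so the order of these counts turned.

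Where both genotypes had the peak, Rpl19 was the highest in EA+/+, with a −log10 q of 16.2 there and 4.14 in EC+/+. Rpl5, which binds 5S rRNA and holds Mdm2 when ribosome assembly fails, had 13 in EA+/+ and 19.3 in EC+/+. Rps24 had 12.3 in EA+/+ and 4.39 in EC+/+, Rpl21 11 and 17.2, Rps6, the target of S6 kinases, 10.4 and 8.39, and Rps13 10.3 and 10.7, each with EA+/+ first. Ranked within each list, Rps24 stood 63.2 percentile points higher in EA+/+ than in EC+/+, while Rpl5 and Rpl21 stood at nearly the same percentile in both, with shifts of -1.56 and -3.89 points. Among genes with a peak in both, 17 of the 52 members stood at least 10 percentile points higher in EA+/+ and 18 at least 10 points lower. Over 9450 genes 32.4% stood higher and 35.4% lower, so the members stood apart in both directions about as often as all genes. The largest shifts (EA+/+ minus EC+/+) were 70.0 points for Rpl19 and -59.7 points for Rpl11 (2.22 in EA+/+ and 7.91 in EC+/+), another 5S rRNA partner.

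In EAKO and Flox nearly every member had an H3K27ac peak. In EAKO 77 members had one (96.3%, interval 89.5 to 98.7), against 60.5% of all genes, and in Flox 78 (97.5%, 91.3 to 99.3), against 63.9% of all genes. There were 77 with both, 0 in EAKO alone and 1 in Flox alone (Rpl39l, 2.71), against 1.75% and 5.18% of all genes. The median −log10 q was 37.7 in EAKO (all genes 22.8) and 40.9 in Flox (all genes 26.4). The highest in EAKO were Rpl21 (205, against 210 in Flox), Rpl19 (142, against 147), Rps23 (136, against 112), Rps7 (119, against 95.7), Rpl7 (109, against 104) and Rps6 (97.6, against 118). Ranked within each list, these genes stood between percentiles 97.0 and 99.8 in EAKO and between 95.2 and 99.7 in Flox, so they ranked high in both genotypes. Of the 77, 16 stood at least 10 percentile points higher in EAKO and 20 at least 10 points lower, against 15.2% and 23.8% of 12879 genes. Rpl36 had 5.27 in EAKO and 24.8 in Flox, a shift (EAKO minus Flox) of -38.4 points, and Rps10 had 3.71 in EAKO and 20.4 in Flox, a shift of -36.4 points. Rpl8 had 54.5 in EAKO and 31.7 in Flox, a shift of 27.3 points.

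Chromatin at the members was open in both of these genotypes. In each ATAC list 78 members had a promoter peak (97.5%), against 66.0% of all genes in EAKO and 67.7% in Flox, with 0 in EAKO alone and 0 in Flox alone. Over all genes 0.784% had an ATAC peak in EAKO alone and 2.54% in Flox alone. The median −log10 q was 87.3 in EAKO (all genes 52.3) and 128 in Flox (all genes 80.4), and the median member stood at percentile 73.3 in EAKO and 74.8 in Flox. Among the highest in EAKO were Rps19 (199, against 232 in Flox), Rpl27 (169, against 185), Rpl21 (158, against 192), Rps25 (155, against 189) and Rps23 (152, against 222). Of the 78, 13 stood at least 10 points higher in EAKO and 9 at least 10 points lower, against 13.3% and 17.6% of 14301 genes. Rpl30 had the largest shift, with 83.1 in EAKO and 228 in Flox (-28.7 points), and Rps9 had 97.1 in EAKO and 84.3 in Flox (26.5 points).

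**Figure D5:**
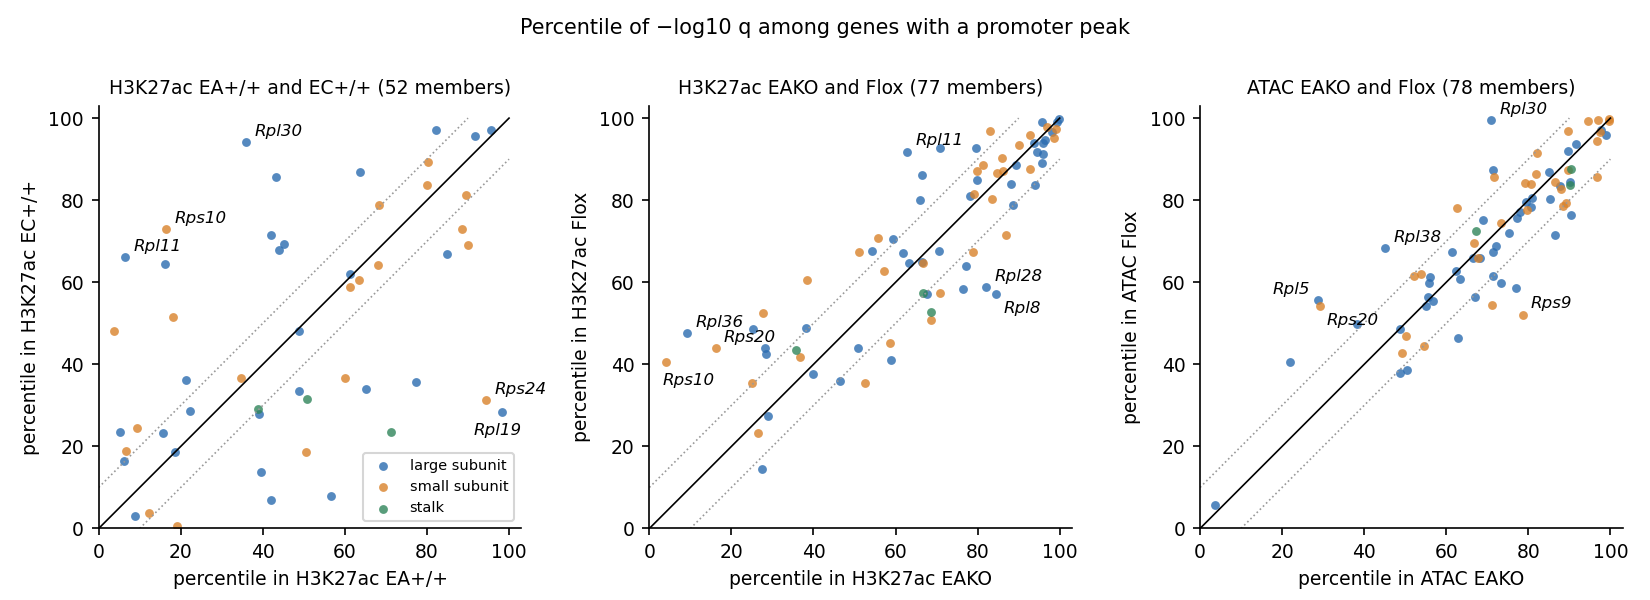
Percentile of each member's best promoter peak among the genes with a promoter peak, in EA+/+ (x) and EC+/+ (y) H3K27ac (52 members), EAKO (x) and Flox (y) H3K27ac (77) and EAKO (x) and Flox (y) ATAC (78), coloured by subunit. The solid line is equality and the dotted lines lie 10 points on each side of it. The members scatter on both sides of the line in each panel and lie closer to it for EAKO and Flox than for EA+/+ and EC+/+.

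The few members that lacked peaks were mostly paralogs of limited expression. Rpl10l, an autosomal copy of the X-linked Rpl10 that serves in spermatogenesis, had no promoter peak in any of the 9 libraries, while Rpl10 had one in 7, with a −log10 q of 44.1 in Ets1 beige, 2.14 in Ets1 CS, 2.60 in EA+/+ H3K27ac, 12.4 in EAKO H3K27ac and 21.6 in Flox H3K27ac. Rpl3l, the striated muscle form of Rpl3, had a peak in EA+/+ H3K27ac (2.38) and in no other library, while Rpl3 had 47.3 in Ets1 beige and 4.54 in Ets1 CS. Rpl39l, the testis form of Rpl39, had no Ets1 peak and had 5.44 in EAKO ATAC and 9.77 in Flox ATAC, against 75.4 and 111 for Rpl39 in those lists. Its ATAC summits were at -454 bp from the start in EAKO and -502 bp in Flox. Rps27l, in contrast, had a peak in 8 libraries, all but Ets1 RT, with 12.1 in Ets1 beige and 2.87 in Ets1 CS, against 21.1 and 6.04 for Rps27. Rpl6 was the remaining member with no Ets1 peak, with 43.8 in EAKO and 32.7 in Flox H3K27ac and 69.1 in EAKO and 104 in Flox ATAC. Its promoter was thus open and acetylated in EAKO and Flox, unlike those of Rpl10l and Rpl3l.

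By member, 2 (Rps25 and Rplp2) had a promoter peak in all 9 libraries, 35 in 8, 25 in 7, 10 in 6, 5 in 5, 1 in 3, 1 in 1 and 1 in 0. The most frequent pattern, in 34 members, was a peak in every library except Ets1 RT, and the next, in 16 members, lacked both Ets1 CS and Ets1 RT. The same counts over all genes are not given here. Lack of an RT peak was not particular to the members, since 4.06% of all genes had one. Rpl23a, Rpl24, Rpl32 and Rps26 had peaks in Ets1 beige and in the EAKO and Flox libraries and in no other.

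Other parts of the translation machinery were counted in the same way. Of 78 mitochondrial ribosome genes, 70 had an Ets1 promoter peak in beige, 50 in CS and 5 in RT, with Mrps18b among the 3 highest in both beige and CS. Of 38 translation factors 37 had one in beige, 25 in CS and 8 in RT, with Eif5a and Eef1a1 among the 3 highest in both. Of 51 ribosome assembly genes 48 had one in beige, 35 in CS and 5 in RT, with Ncl (nucleolin) and Npm1 (nucleophosmin) among the 3 highest in beige and in CS in that order. In RT the shares were 6.41% of mitochondrial ribosome genes, 21.1% of translation factors and 9.80% of ribosome assembly genes. The members' share in RT was 3.75%, against 4.06% of all genes. In beige the 3 lists had shares of 89.7%, 97.4% and 94.1% in that order, against 76 of the 80 members and 46.4% of all genes. In CS they had 64.1%, 65.8% and 68.6%, against 61.3% of the members and 32.7% of all genes. A share above that of all genes in beige and CS was thus not particular to the members. Of 6 ribosomal protein genes that the symbol rule left out, all had a beige peak and 4 a CS peak. Fau, whose product is a ubiquitin-like protein fused to a small subunit protein, had 48.6 in beige and 4.25 in CS. Processed pseudogenes of the members, which lack their promoters, had almost none: of 280 away from coding promoters, 0 had a peak in Ets1 beige, 1 in Ets1 CS, 0 in Ets1 RT, and at most 3 in any other list.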

How the data were processed

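CUT&Tag of Ets1 or H3K27ac and ATAC were done in mouse adipocytes, with 1 library per group and 9 in all. The authors trimmed reads, aligned them to mm10 and called the peaks of every library with MACS2 at q under 0.05. The submitters' processing notes also name BWA, SAMtools and deepTools. The control given to MACS2 is not given in the sources used here. For every peak the deposited lists hold the position, a score (10 times the −log10 q as a whole number), the fold enrichment, which is a linear ratio, the −log10 p-value, the −log10 q-value and the summit. These values depend on depth, so they were ranked only within a list. Values of different lists printed side by side do not measure a difference between groups.

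Peaks were overlapped (1 bp or more) with the 1 kb on each side of 93513 start sites of 21938 genes in GENCODE M21, with Python 3.11.15 and pandas 2.3.3, and the code was tested on simulated data. A member's value is its best promoter peak, and its percentile is among all genes with a promoter peak. Promoters came from RefSeq (GRCm38.p6). The members and gene lists were chosen with earlier results of these data known. Named genes were the 6 highest in each class of each comparison, members without a peak, members with an RT peak, and paralogs that differed (a few are not reported here). Members with the largest percentile shifts and those set beside the ETS letters or H3K27ac were chosen after their values were seen. With 1 library per group no test was possible. The alternatives were windows of 500 bp and 3 kb, a −log10 q of at least 5, the gene's 5′ end only, summits inside the window, no shared promoters, equal numbers of best peaks, and overlap by 50% of the shorter peak.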

Additional observations from a re-analysis of the deposited data

How the results depend on the processing

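No paired analysis was possible because each group has 1 library. Of 110 values recomputed under alternatives, 92 stayed within 1.5 times, 17 moved by more and 1 turned round. Keeping peaks with a −log10 q of at least 5 left 25 members in Ets1 CS, 0 in Ets1 RT, 25 in EA+/+ and 28 in EC+/+. It gave 25 members in CS alone against RT and 48 in beige alone against CS. Shares of all genes at that cut are not given, so whether members exceed them there is not known. Equal numbers of best peaks gave 20 members in CS alone against RT and 27 in beige alone against RT. In H3K27ac, leaving out members that share a promoter turned the order of the counts, with 7 in EA+/+ alone and 6 in EC+/+ alone of 62 members, and requiring overlap by 50% of the shorter peak gave 16 in EA+/+ alone. An alternative chosen after seeing the data kept the 4056 best peaks of each list, the size of the RT list. It left 30 members in Ets1 beige, 23 in Ets1 CS, 13 in EA+/+, 16 in EC+/+, 37 in EAKO and 35 in Flox H3K27ac, and 37 in EAKO and 40 in Flox ATAC, against shares of all genes from 14.5% to 17.5%. At that size the members' shares ran from 16.3% in EA+/+ to 50.0% in Flox ATAC. No list has a replicate. Library read totals stated by the study were not brought into these counts, so how far the shares follow depth was not tested. Peaks shared with a neighbouring gene cannot be given to either gene.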
